A study of Caenorhabditis elegans with 4 samples.

Results

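The regions described are the binding peaks of TBP-1, the TATA-binding protein of Caenorhabditis elegans, on chromosome IV outside the domains that carry most of its piRNA genes. They were chosen by position alone, as peaks of the series-wide list whose centre lay left of 4.5 Mb (left stretch), between 7 and 13.5 Mb (middle stretch) or right of 17.2 Mb (right stretch) on the WormBase WS220 build. By this rule 440 of the 689 peaks on IV were taken, out of 4214 peaks in the whole list and 4203 on the nuclear chromosomes. The remaining 249 peaks of IV lay in the piRNA domains. The same positions held 175 peaks of the replicate 1 list and 271 of the replicate 2 list.

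The embryos were wild-type N2, of mixed embryonic stages and from a population with males and hermaphrodites, at 20 °C. Both ChIP replicates (n = 2) were made with an affinity-purified rabbit polyclonal antibody against TBP-1, and the 2 input DNA samples of the series carry the same strain, stage and genotype. Peak lists of the inputs were not analysed here, and no label ties the replicates to cultures of their own, so differences between them may be technical. Whole embryos of all stages were pooled, so a peak does not say in which cells or at which stage TBP-1 was bound.

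TBP nucleates the assembly of the transcription machinery at core promoters, as part of TFIID for RNA polymerase II and of other complexes for RNA polymerases I and III. Its binding therefore marks promoters of protein-coding genes as well as those of short RNAs such as tRNAs. Worm piRNAs come from many small transcription units that are crowded into parts of chromosome IV and are used in the germline, whereas the rest of IV carries ordinary genes, with a gene-dense centre and repeat-rich arms like the other autosomes. The positions outside the piRNA domains were set against the other autosomes, I, II, III and V, to ask whether chromosome IV is an ordinary autosome for TBP-1 once its piRNA domains are left aside.

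The density of TBP-1 peaks on IV outside the piRNA domains did not differ from that on the other autosomes beyond the scatter along the chromosomes. The series list held 39.0 peaks per Mb over 11.29 Mb there, against 39.5 per Mb over the 65.06 Mb of I, II, III and V. The ratio was 0.99 (95% interval 0.84 to 1.16), from a quasi-Poisson regression over windows of 500 kb (n = 23 and n = 132 windows), in which the scatter between windows sets the error (adjusted p = 0.92). Among the other autosomes the density ran from 32.8 per Mb on V through 36.9 on II and 44.5 on I to 47.2 on III, so the value of the region lay inside their range.

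The separately called replicate lists gave nearly the same ratios. Replicate 1 had 15.5 peaks per Mb against 15.7, a ratio of 0.99 (0.76 to 1.28), and replicate 2 had 24.0 against 24.4, a ratio of 0.98 (0.84 to 1.16). The adjusted p of the quasi-Poisson regression was again 0.92 in both. The mean ratio over the replicates was 0.985 ± 0.003 (SD, n = 2). Without chromosome III, the densest of the 4 comparison chromosomes, the ratio turned to 1.04 in each of the 3 lists.

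The piRNA domains of the same chromosome had 40.2 series-list peaks per Mb. The ratio of the positions outside them to the domains was 0.97 (0.78 to 1.21; quasi-Poisson regression, n = 23 and n = 13 windows, p = 0.78). A difference in TBP-1 peak density between these parts of IV was not detectable in these lists.

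Within the region the fullest and the emptiest windows both lay in the middle stretch. The 22 complete windows of 500 kb held 9 to 37 series-list peaks, with a median of 19 and a standard deviation of 6.72. The 128 complete windows of the other autosomes held 8 to 44, with a standard deviation of 6.87. The left stretch had 183 peaks (40.7 per Mb) with 15 to 28 per window. The middle stretch had 251 peaks (38.6 per Mb) with 9 to 37 per window. The right stretch, a piece of 0.29 Mb at the end of the chromosome, had 6 peaks (20.4 per Mb). These 3 stretches were not tested against each other. The standard deviation of the window counts was 4.80 in the left stretch, 7.95 in the middle stretch and 3.80 in the 12 complete windows of the piRNA domains.

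**Figure D1:**
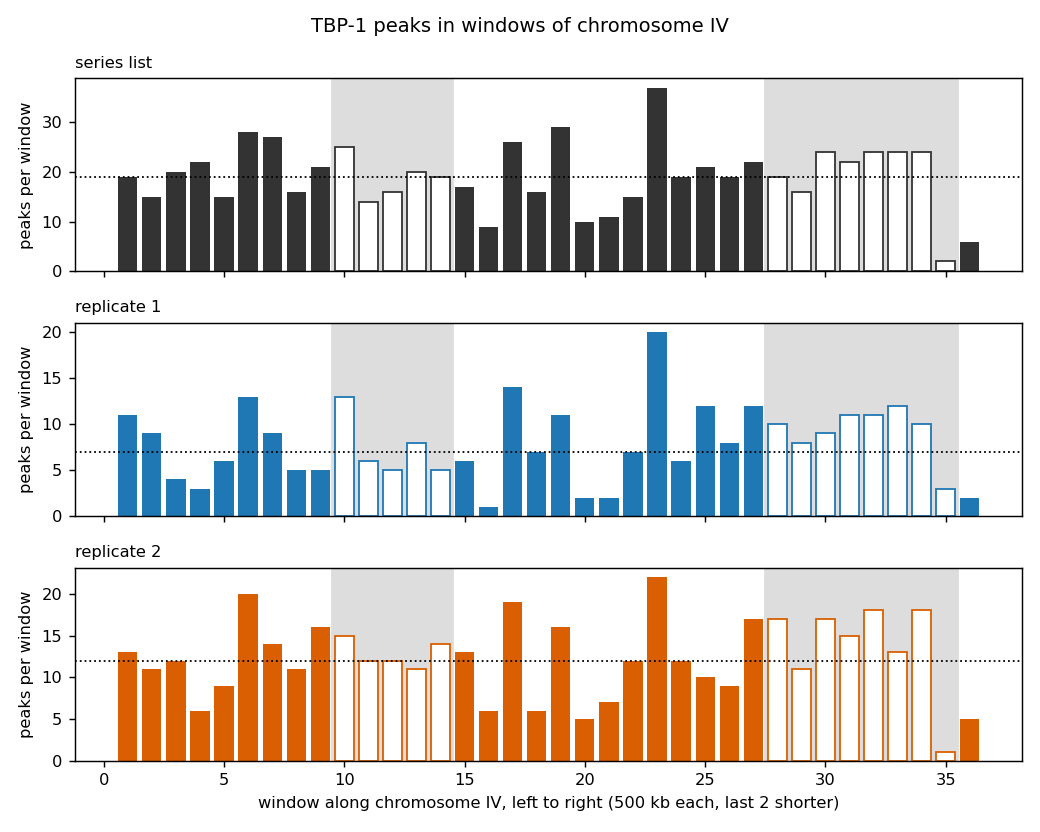
Bars give the number of TBP-1 peaks in each window along chromosome IV, numbered from the left, for the series list and both replicates. Filled bars are windows outside the piRNA domains, open bars on grey are the piRNA domains, and dotted lines mark the median of the complete filled windows (19, 7 and 12 peaks). Window 23 is the fullest filled bar in each of the 3 lists.

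The fullest window, from 11 to 11.5 Mb, held 37 series-list peaks, and 3 of 128 complete windows on I, II, III and V held as many or more. It was also the fullest of the region in both replicates, with 20 peaks in replicate 1 and 22 in replicate 2. Of its 37 series-list peaks, 21 overlapped peaks of both. A single run from 11033583 to 11036575, under 1 replicate 2 peak, gave 7 of the 37 peaks and 5 of the 21. The next fullest windows were 9 to 9.5 Mb with 29 series-list peaks (11 in replicate 1 and 16 in replicate 2) and 2.5 to 3 Mb with 28 (13 and 20). These 3 windows stood high in all 3 lists.

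The emptiest window, from 7.5 to 8 Mb, held 9 series-list peaks, with 1 in replicate 1 and 6 in replicate 2. From 9.5 to 10 Mb there were 10 (2 and 5), and from 10 to 10.5 Mb 11 (2 and 7). The latter windows lie directly to the right of the full window at 9 to 9.5 Mb. A long stretch without any series-list peak, from 9874084 to 10129087, crosses from one into the other. At 255.0 kb it was longer than the longest such stretch on I (194.4 kb), II (209.7 kb), III (165.5 kb) and V (234.7 kb), and neither replicate had a peak wholly inside it. The stretch from 7580470 to 7789489, of 209.0 kb, was the next longest and also held no replicate peak.

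Across the 22 complete windows the counts of the lists ran together, with a Spearman's rho of 0.72 between replicate 1 and replicate 2, 0.68 between the series list and replicate 1 and 0.75 between the series list and replicate 2. These values describe windows of the same libraries, and the series list was taken as built from both replicates. A window could still be full in 1 list and not in the others. From 1.5 to 2 Mb the series list had 22 peaks, but replicate 1 had 3 and replicate 2 had 6, and 16 of the 22 overlapped no replicate peak.

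**Figure D2:**
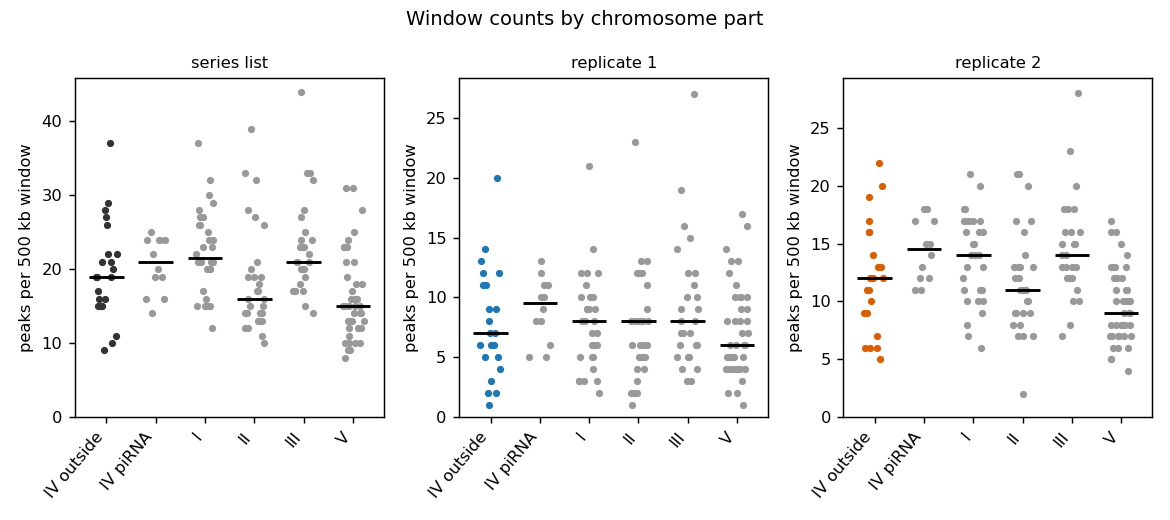
Each point is a complete 500 kb window, with its number of TBP-1 peaks in the series list, replicate 1 and replicate 2. Coloured points are windows of chromosome IV outside the piRNA domains (22 windows), grey points the piRNA domains (12 windows) and chromosomes I, II, III and V (128 windows), and bars are medians. In each list the coloured points lie within the range of the grey ones, with series-list medians of 19 outside the piRNA domains and 21 inside them.

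Overlap with the replicates was counted when a series-list peak shared at least 1 bp with a replicate peak. Both replicates had a peak at 164 of the 440 positions (37.3%, 95% Wilson interval 32.9 to 41.9), against 34.5 percent of all nuclear series-list peaks and 33.0% on the other autosomes. Replicate 2 alone had a peak at 130 positions (29.5%, 25.5 to 34.0), against 31.3 percent of all nuclear peaks. Replicate 1 alone had one at 12 positions (2.73%, 1.57 to 4.71), against 5.21 percent. Neither had one at 134 positions (30.5%, 26.3 to 34.9), against 29.0 percent.

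The shares in both replicates, in neither and in replicate 1 alone did not differ from the other autosomes beyond the scatter between windows, and the share in replicate 2 alone was not tested. For peaks in both replicates the odds ratio was 1.21 (0.92 to 1.58; quasi-binomial regression over windows, adjusted p = 0.56), and for peaks in neither it was 1.01 (0.79 to 1.29; adjusted p = 0.92). The share found in replicate 1 alone was 2.73% here and 5.99% on the other autosomes, where V had 9.46%. That comparison was added after the values were seen and did not pass (quasi-binomial regression, p = 0.073, adjusted p = 0.18 over 5 added comparisons).

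Seen from the replicates, 159 of 175 replicate 1 peaks in the region overlapped a replicate 2 peak (90.9%, 85.7 to 94.3), against 85.2 percent of all nuclear replicate 1 peaks and 83.0% on the other autosomes. The odds ratio to the other autosomes was 2.04 (0.99 to 4.20) and missed the threshold (quasi-binomial regression, p = 0.053, adjusted p = 0.53). Of the 271 replicate 2 peaks, 147 overlapped a replicate 1 peak (54.2%, 48.3 to 60.1), against 49.6 percent of all nuclear ones and 48.8% on the other autosomes (odds ratio 1.24, 0.91 to 1.69; quasi-binomial regression, adjusted p = 0.56). The 124 replicate 2 peaks without a counterpart had a median score of 86.3, and the 147 with one had a median of 917. The 16 replicate 1 peaks without a counterpart had a median of 88.0, against 478 for the 159 others.

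The series list contained 170 of the 175 replicate 1 peaks (95.3 percent of all nuclear ones were contained) and 257 of the 271 replicate 2 peaks (93.7 percent of all). The 5 and 14 missing ones were weak, with scores up to 69.8 in replicate 1 and up to 118.8 in replicate 2, in lists whose lowest scores are 50.2 and 50.04.

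**Figure D3:**
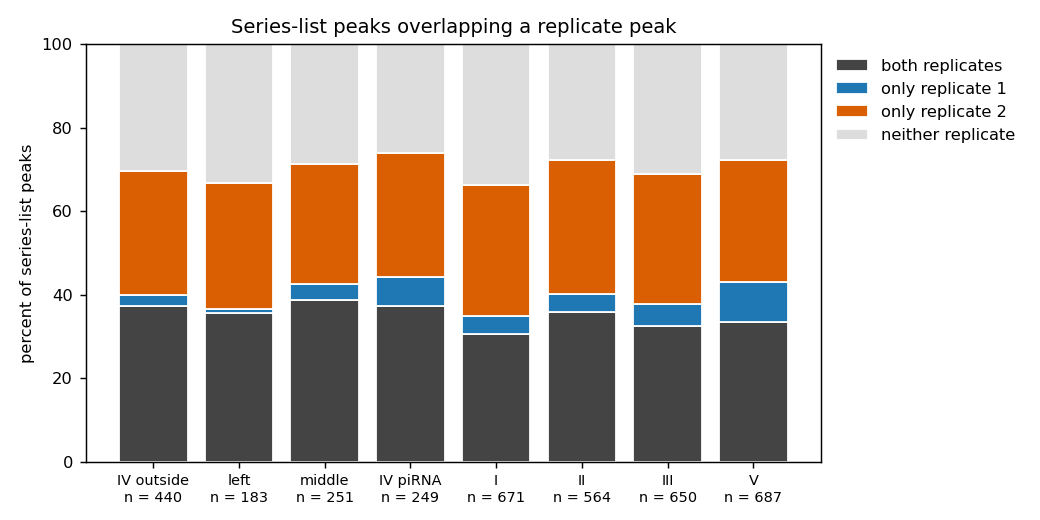
Stacked bars give the percent of series-list peaks that overlap a peak of both replicates, of 1 replicate alone or of neither, for all peaks on IV outside the piRNA domains, their left and middle stretches, the piRNA domains and chromosomes I, II, III and V. The share in both replicates is 37.3% outside the piRNA domains and 37.3% inside them, and the share in replicate 1 alone ranges from 1.09% in the left stretch to 9.46% on V.

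Whether a series-list peak overlapped replicate peaks followed its score rank. The series list was taken as built from these same replicates, so the overlap of its strong peaks is not an independent finding. The scale of the authors' score is not stated, so each score was turned into a percentile among the nuclear peaks of its list. In the strongest 25% of the nuclear list, 113 of 115 peaks of the region were in both replicates and 0 were in neither, with a Wilson upper limit of 3.23%. The other autosomes had 587 of 603 in both and 1 in neither. In the weakest 25% of the list 4 of 111 were in both (3.60%) and 73 were in neither (65.8%), against 2.00% and 63.3% on the other autosomes. Between the 50th and the 75th percentile 29 of 99 were in both (29.3%), against 32.7%. Between the 25th and the 50th percentile 18 of 115 peaks were in both replicates (15.7%), against 25 of 638 (3.92%) on the other autosomes. Of these 18 peaks, 8 belonged to 2 runs of neighbours that a single wide replicate 2 peak each covered as a whole, so they share their replicate peaks and are not separate findings. This split was made after the data were seen and was not tested.

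Score ranks did not differ from the other autosomes beyond the scatter between windows in the series list. The mean score percentile in the series list was 50.2 against 49.4 on the other autosomes, a difference of 0.79 (-2.93 to 4.51; weighted regression of window means, n = 23 and n = 132 windows, adjusted p = 0.92). Of the 440 peaks, 45 stood above the 90th percentile, or 10.2%, against 9.99 percent of all nuclear peaks. In replicate 1 the mean percentile was 53.5 against 48.3, a difference of 5.26 (0.22 to 10.3) that did not hold after adjustment over the 5 added comparisons (weighted regression, n = 23 and n = 132 windows, p = 0.041, adjusted p = 0.18). In replicate 2 it was 52.0 against 49.1 (same regression, n = 23 and n = 132 windows, adjusted p = 0.19).

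The place of the strong peaks depended on how many were counted. Of the 10 strongest peaks found in both replicates, 8 were in the left stretch and 2 in the middle stretch. Of the 45 peaks above the 90th percentile, 15 were in the left stretch (8.20% of its peaks) and 30 in the middle stretch (11.95% of its peaks). The strongest was chr IV from 143625 to 144217, 593 bp wide. Its score of 246.25 is the top of the series list, which peaks on I, V and X also reach. It scored 2537.6 in replicate 1, at the 93.3rd percentile, and 3102.18 in replicate 2, at the 99.4th. The next, from 1388001 to 1388528 (528 bp), had a series-list score of 235.79, with 2379.75 in replicate 1 and 2839.32 in replicate 2. The peak from 2408369 to 2408952 (584 bp) had 235.6, with 2138.46 and 3100. The peak from 682761 to 683408 (648 bp) had 235.17, with 2519.76 and 3100. A score of exactly 3100 was shared by 175 nuclear replicate 2 peaks, 21 of them in the region, so it does not rank them against each other.

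The other 6 of the 10 strongest peaks had series-list scores of 220.68 to 228.51. In the left stretch they were 2639623 to 2640168, 2739926 to 2740414, 620140 to 620766 and 842566 to 842994. In the middle stretch they were 7573739 to 7574293 and 12086189 to 12086869. The peak at 7573739 lies in the emptiest window, 5944 bp from its nearest neighbour, and scored 3061.4 in replicate 1, the highest of the 10 there. The lowest replicate 1 score of the 10 was 1158.21, for the peak at 842566. All 10 were 429 to 681 bp wide.

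The strongest peaks that neither replicate had were much weaker. They were chr IV 17493443 to 17493824 with a series-list score of 26.91, 3294628 to 3294837 with 19.25, 264436 to 264680 with 18.33, 828463 to 828736 with 17.72 and 7580238 to 7580469 with 17.68. The first of them ends at the last listed position of the chromosome in any list. They lay between the 60.6th and the 69.3rd percentile.

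Peak widths did not differ from those of the other autosomes beyond the scatter between windows. The median width was 269.5 bp in both, with quartiles of 192 and 432 bp in the region and 193 and 397 bp on I, II, III and V. The geometric mean width was 1.04 times that of the other autosomes (0.96 to 1.12; weighted regression of log2 widths, n = 23 and n = 132 windows, adjusted p = 0.83). Wider peaks tended to have higher score ranks, with a Spearman's rho of 0.74 across the 440 peaks of this single list. Peaks in both replicates had a median of 459.5 bp, those in replicate 2 alone 263 bp and those in neither 180 bp.

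At the 164 positions found in both replicates the overlapping peaks of the 3 lists differed in width. The median width was 459.5 bp in the series list, 595.5 bp in replicate 1 and 1064 bp in replicate 2. The replicate 2 peak was the widest of the 3 at all 164 positions, and the series-list peak was the narrowest at 126. A replicate peak over several series-list peaks was counted at each of them, so wide replicate peaks weigh more in these values. Of the 271 replicate 2 peaks, 28 covered 2 or more series-list peaks, against 5 of 175 in replicate 1. The share over all nuclear peaks is not given here, so these counts do not set the region apart.

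Broad peaks were few. Only 4 of the 440 were over 3 kb wide (0.642 percent of all nuclear peaks were), 2 of them in each of the left and middle stretches. The widest, from 11070829 to 11075933 (5105 bp), lies in the fullest window and was nearly as wide in replicate 1 (5148 bp, score 886.57) and in replicate 2 (5660 bp, score 2791.41). The peak from 4416423 to 4420704 (4282 bp) was covered by single peaks of 5683 bp in replicate 1 and 6104 bp in replicate 2, whose score percentiles were far apart, at 71.3 and 28.0. The peak from 3206314 to 3209527 (3214 bp) was in both replicates, and the one from 8578261 to 8581716 (3456 bp) was in replicate 1 alone. The next widest, from 12316350 to 12319334 (2985 bp), was in both.

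**Figure D4:**
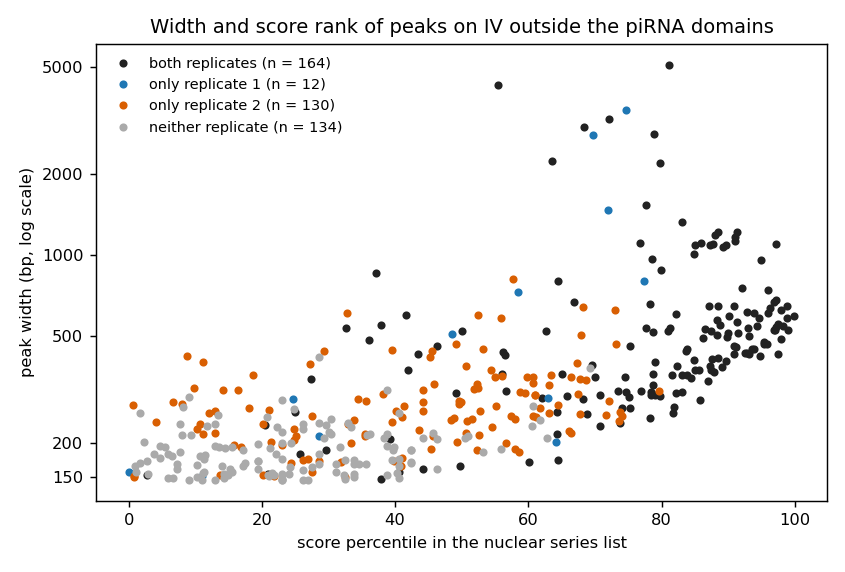
Each of the 440 points is a TBP-1 peak of chromosome IV outside the piRNA domains, with its score percentile in the nuclear series list on the x axis and its width on a log axis, coloured by the replicates that it overlaps. Peaks in both replicates (164) fill the strong side but also occur on the weak side. Peaks in neither (134) lie mostly on the weak side, up to the 69.3rd percentile, with a median width of 180 bp. The 4 broad peaks over 3 kb lie between the 55.5th and the 81.1st percentile.

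Of the 16 replicate 1 peaks without a replicate 2 counterpart, 4 lay at a single locus. Replicate 2 had 124 peaks of the region without a replicate 1 counterpart. Between 8572594 and 8581716, 4 neighbouring series-list peaks spanned 9123 bp, with scores of 31.67, 45.99, 27.55 and 38.68 in order along the chromosome. Replicate 1 had 4 peaks there, with scores of 284.84, 321.29, 877.05 and 855.71, and replicate 2 had none. These were 4 of the 12 peaks that replicate 1 alone shared with the series list. The locus was picked out after its values were seen.

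The frequency of close neighbours did not differ from the other autosomes beyond the scatter between windows. The gap from one peak to the next within the region had a median of 14.9 kb, against 12.0 kb on I, 13.6 kb on II, 12.8 kb on III and 15.2 kb on V. A neighbour at a gap under 1 kb was found for 122 of 440 peaks (27.7%, 23.7 to 32.1), against 25.8 percent of all nuclear peaks and 24.9% on the other autosomes (odds ratio 1.16, 0.81 to 1.65; quasi-binomial regression, adjusted p = 0.85). The share was 22.4% in the left stretch and 31.5% in the middle stretch, with Wilson intervals of 17.0 to 29.0 and 26.0 to 37.5. Wilson intervals take each peak as separate, but close neighbours give each other this status, so the intervals are too narrow. The 2 stretches were not tested against each other.

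These 122 peaks formed 52 runs, of which 41 were pairs, 7 had 3 peaks and 4 had more. In 30 of the 52 runs a single replicate 2 peak was present, and in 6 runs no replicate had a peak. The closest pair, 7402021 to 7402279 and 7402324 to 7402473, was 44 bp apart and lay under 1 replicate 2 peak of 615 bp. The longest run had 7 peaks between 11033583 and 11036575, with scores of 3.99 to 9.63, where replicate 2 had a single peak of 3347 bp (score 313.73) and replicate 1 had 3 peaks of 338 to 805 bp (scores of 67.7 to 92.08). At such places the number of peaks differs between the lists over the same bases, so it counts how a list was cut as well as where TBP-1 was found.

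The peaks on either side of the borders were given by the position rule. The member nearest to 4.5 Mb was 4469810 to 4470110 (score 17.78, in replicate 2), and the first peak beyond it was 4513492 to 4513746 (7.41, in neither). At 7 Mb the neighbours were 6958900 to 6959055 inside the domain (5.59) and 7039531 to 7039677 outside it (7.12), both in neither replicate. At 13.5 Mb they were 13463777 to 13464211 outside (14.94, in both) and 13503086 to 13503231 inside (3.98, in neither), and at 17.2 Mb 17169522 to 17169773 inside (2.89, in neither) and 17249740 to 17249980 outside (35.45, in replicate 2). All 8 border peaks scored below the 75th percentile of the nuclear list, as 75% of all nuclear peaks do by definition. Whether border peaks are weaker than others was not tested.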

How the data were processed

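ChIP-seq peak lists of 2 TBP-1 replicates and of the whole series were used. The submitters' processing notes name BWA and the build ce10. Coordinates follow WormBase WS220, per the file headers, and the callers given are MACS (replicates) and MACS v2 (series). Caller settings, the control and the origin of the series list were not given in the sources used here, and that list was treated as pooled, with no SD. The deposited score has no stated scale and was used as a rank within its list. Other deposited columns, start and end, gave width and centre. Lists hold no read counts, so the depth is unknown, and intervals cover peak counts only.

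Peaks were counted in 500 kb windows. Chromosome lengths were taken as the last peak end in any list. Densities were compared by quasi-Poisson, shares by quasi-binomial and mean log2 widths and percentiles by weighted least-squares regression over windows, two-sided, with Benjamini-Hochberg adjustment over 10 comparisons (threshold 0.05). Windows are parts of a chromosome, not replicates of a condition, and the regressions treat them as independent. The models were tested on simulated data with windows drawn independently, which cannot check the effect of correlation between neighbouring windows. Positions, members and lists were chosen with earlier results of these data known. Named peaks were the 10 strongest in both replicates, the 5 strongest in neither, the 5 widest, the closest pair, the border peaks, and the 3 fullest and emptiest windows. Alternatives were other windows, models, overlap rules, borders, comparison chromosomes, stronger or merged peaks and each replicate left out. No genome or annotation of WS220 was used, so no gene or sequence is given for a peak. Python 3.11.15, pandas 2.3.3, scipy 1.17.1 and statsmodels 0.14.6 were used.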

Additional observations from a re-analysis of the deposited data

How the results depend on the processing

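No comparison with the other autosomes or with the piRNA domains passed the threshold after adjustment as reported, and none did under any alternative run. Ratios of density near 1 changed side without passing. For the series list the ratio was 1.00 with borders moved 250 kb away from the piRNA domains, 1.02 without chromosome I, 1.04 without III and 1.06 by covered base pairs (no test). For replicate 1 it was 1.24 with the stronger 50% of peaks, 1.009 with the moved borders, 1.002 without the right end of IV, 1.059 for the middle stretch alone, 1.04 without III and 1.075 by covered base pairs. For replicate 2 it was 1.117 with the stronger 50%, 1.023 without I, 1.038 without III and 1.029 by covered base pairs. The difference in the share found in neither replicate, 0.24 percentage points, became -0.12 with centres within 500 bp, -0.47 without II, -0.63 without V and -0.627 with the stronger 50%. With either replicate left out it was -3.02 to -1.04. With the stronger 50%, the differences in the shares of replicate peaks found again became -1.42 (replicate 1) and -0.22 (replicate 2). The score percentile difference became -2.50 among peaks found in both replicates, and that of close neighbours became -0.77 at a gap under 2 kb. The cause was not tested. The mean density ratio was 0.983 to 0.987 with either replicate left out. No paired analysis was possible because the inputs gave no values to pair with the ChIP lists. The unknown depth limits what weak peaks missing from a replicate show.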

Other observations

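Pairs of peaks of like width stood out after the widths were seen. A pair was then defined as neighbours at a gap under 1 kb that were both 900 to 1400 bp wide, and this rule was set on the values, so the counts are a description with no test. Chromosome IV outside the piRNA domains held 5 such pairs, II and V held 2 each, and I, III, X and the piRNA domains held 0. That was 0.44 pairs per Mb in the region and 0.061 per Mb on the other autosomes. Peaks in this width range were 17 of 440 in the region and 60 of 2572 on the other autosomes. The piRNA domains held only 2 such peaks of 249, so few pairs were possible there. The pairs on IV were 7485840 to 7486929 with 7487597 to 7488668, 8333628 to 8334843 with 8335276 to 8336365, 10943383 to 10944492 with 10945256 to 10946227, 11324009 to 11325135 with 11325921 to 11327017, and 11337782 to 11338877 with 11339619 to 11340786. Their gaps were 432 to 785 bp, and all 10 peaks were in both replicates. The peaks of all 4 pairs on the other autosomes were in both replicates as well, so this is not particular to IV. In replicate 1 the scores of these 10 peaks ran from 420.14 to 2485.09. In replicate 2 they ran from 763.27 to 3100, a score that many peaks of that list share. At 8333628 to 8336365 replicate 2 had 1 peak of 3180 bp over both members of the pair, so its score counts for both. The last 2 pairs lie in the fullest window. As background, worm core histone genes lie in small groups on several chromosomes. The RefSeq gene table of WBcel235 has 72 protein-coding genes named his. It places 22 on IV, 27 on V, 14 on II and 9 on the other chromosomes. The count for IV covers the whole chromosome, and how many of these genes lie outside the piRNA domains is not known here. Gene positions are not compared with the peaks here, because the table is on another build, and whether the pairs lie at such genes was not tested.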
